A study of Mus musculus with 3 samples.

Results

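The 35 collagen genes that lie outside the basement membrane group were followed in single-cell RNA profiles of the mouse left ventricle. They were the genes whose symbol reads Col, a number, the letter a and a number with nothing after it. That pattern matched 44 of the 30360 genes measured, and 9 basement membrane collagens among them (Col4a1 to Col4a6, Col7a1, Col15a1 and Col18a1) were left out. The rule reads symbols and no measured value, but it was set with earlier results of these data known.

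Each of the 3 groups was represented by 1 library made from 4 pooled samples of C56Bl6 mice. Control animals received the control diet for 10 weeks, with no vector named in the labels. HFpEF-scr animals spent 6 weeks on the High-Fat + L-NAME diet, a model of heart failure with preserved ejection fraction (HFpEF) that combines a fatty diet with L-NAME, which blocks nitric oxide synthesis, and an adeno-associated viral vector with a scrambled short hairpin RNA (AAV-scramble-sh) for 4 weeks. HFpEF-FoxO1-sh animals received the same diet for the same time and, for 4 weeks, a vector with a hairpin against the transcription factor FoxO1 (AAV-FoxO1-sh). The labels name neither the promoter nor the cell type that carries the hairpin, nor the animals' age or sex. Before droplet capture a strainer held back cardiomyocytes, and debris and red blood cells were cleared, so the data describe the other cells of the ventricle. The comparison of HFpEF-scr with Control covers diet, its labelled weeks (6 against 10) and vector together, whose parts cannot be told apart. The comparison of HFpEF-FoxO1-sh with HFpEF-scr covers the hairpin on a shared diet. Both use the HFpEF-scr library, so a high or low value there enters each of them with opposite sign.

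Collagens are made of 3 chains wound into a triple helix, which needs a glycine in each triplet of residues. Fibrillar types I, III and V build the tensile fibres of the heart wall. Type VI forms beaded filaments around cells, the fibril-associated types (FACIT) decorate fibre surfaces, types VIII and X form hexagonal networks, and a small group spans the cell membrane. Resident fibroblasts are the main source of fibrillar collagen in the heart, and collagen build-up is a known feature of hearts with diastolic dysfunction.

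The repeat is visible in the genes themselves. The coding exons below come from the GENCODE M21 transcripts of GRCm38, which is the same assembly as the mm10 named in the submitters' processing notes. They are shown because these members carry the main results, and because fibrillar collagen genes are built from exons of 54 bases that hold whole glycine triplets. Capitals mark the glycine codon that opens each triplet of residues.

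Col1a1, exon 8, chr11:94939904-94939957, plus strand: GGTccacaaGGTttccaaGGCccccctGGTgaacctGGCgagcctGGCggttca
Col1a2, exon 8, chr6:4515481-4515534, plus strand: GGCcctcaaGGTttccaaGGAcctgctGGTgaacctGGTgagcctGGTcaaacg
Col3a1, exon 6, chr1:45325360-45325413, plus strand: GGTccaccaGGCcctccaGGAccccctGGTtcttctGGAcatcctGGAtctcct
Col5a2, exon 10, chr1:45422386-45422439, minus strand: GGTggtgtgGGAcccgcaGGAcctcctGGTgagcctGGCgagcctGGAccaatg
Col11a2, exon 15, chr17:34051480-34051533, plus strand: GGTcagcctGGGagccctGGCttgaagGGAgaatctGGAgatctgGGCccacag
Col27a1, exon 7, chr4:63245069-63245122, plus strand: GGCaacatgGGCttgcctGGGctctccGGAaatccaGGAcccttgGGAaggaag
Col6a6, exon 13, chr9:105760051-105760104, minus strand: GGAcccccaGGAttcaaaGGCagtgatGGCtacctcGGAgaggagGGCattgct
Col14a1, exon 39, chr15:55472927-55472980, plus strand: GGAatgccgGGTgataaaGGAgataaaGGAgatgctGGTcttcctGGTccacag
Col22a1, exon 46, chr15:71857251-71857304, minus strand: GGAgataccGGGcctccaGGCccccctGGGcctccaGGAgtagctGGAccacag

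The 11 fibrillar members held an unbroken run of 216 to 344 glycine triplets and 21 to 31 exons of 54 bases within it. The 6 type VI members held runs of 37 to 87 triplets with 1 to 3 such exons. The 9 fibril-associated members held 32 to 113 triplets and 1 to 11 such exons, the 3 network members 60 to 61 triplets and none, the 4 transmembrane members 40 to 56 and 0 to 3. Several members are neighbours: Col3a1 and Col5a2 lie 24614 bases apart on opposite strands of chromosome 1, Col6a2 and Col6a1 85161 bases apart on chromosome 10, and Col6a6, Col6a5 and Col6a4 follow one another on chromosome 9 with 27917 and 28810 bases between them.

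The 3 libraries held 27453 to 36179 cell barcodes and 144561934 to 154385813 unique molecular identifiers (UMIs, counts of captured RNA molecules). Between them, pairs of libraries shared 238 to 335 barcodes. The median mitochondrial share per barcode was 24.6% for Control, 22.1% for HFpEF-scr but 11.7% for HFpEF-FoxO1-sh, which stood apart before filtering. After filters, 12757, 14567 and 16854 cells were kept, with a median of 6520 to 6889 UMIs each. Clusters of cells were named from marker genes, with all Col genes left out of both clustering and markers, and all 17 fibroblast markers had UMIs in the fibroblast-like cells of each library. Foxo1, the target of the hairpin, was at 61.1 counts per 1000000 UMIs (CPM) in Control, 56.2 with the scrambled hairpin and 59.7 with the hairpin against it, and so was not lower in the library labelled HFpEF-FoxO1-sh. In fibroblast-like cells it was at 64.2, 59.0 and 64.2 CPM. Counts of RNA do not measure the FoxO1 protein, and directions that involve this library describe the library as labelled. With 1 library per group no test was possible. The 95% intervals given cover counting error only, and UMIs of one cell are not independent, so the true uncertainty is larger. Where values follow each other in threes, Control comes first, HFpEF-scr second and the library labelled HFpEF-FoxO1-sh last.

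Collagen RNA lay mainly in fibroblast-like cells (called fibroblasts from here, as the other classes are called by their name without the suffix). They numbered 8294, 9106 and 10422 cells, and 87.4%, 86.9% and 89.6% of the members' UMIs in kept cells fell in them. Members made up 0.964%, 1.063% and 0.9801% of all fibroblast UMIs. Of the 35 members, 28 had at least 50 UMIs in fibroblasts over the 3 libraries and 24 had at least 200. The other 7 were at or near the floor there: Col24a1 gave 9, 5 and 8 UMIs, Col25a1 9, 22 and 17, Col28a1 2, 5 and 5, Col6a4 and Col10a1 1 in each library, and Col19a1 1, 1 and 0. Col2a1, the chain of cartilage type II collagen, gave 5, 36 and 2 UMIs, and the 36 in HFpEF-scr came from 8 cells. Because reads were taken at the 3′ end and not divided by gene length, levels are compared between libraries and cell classes and not between genes.

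**Figure D1:**
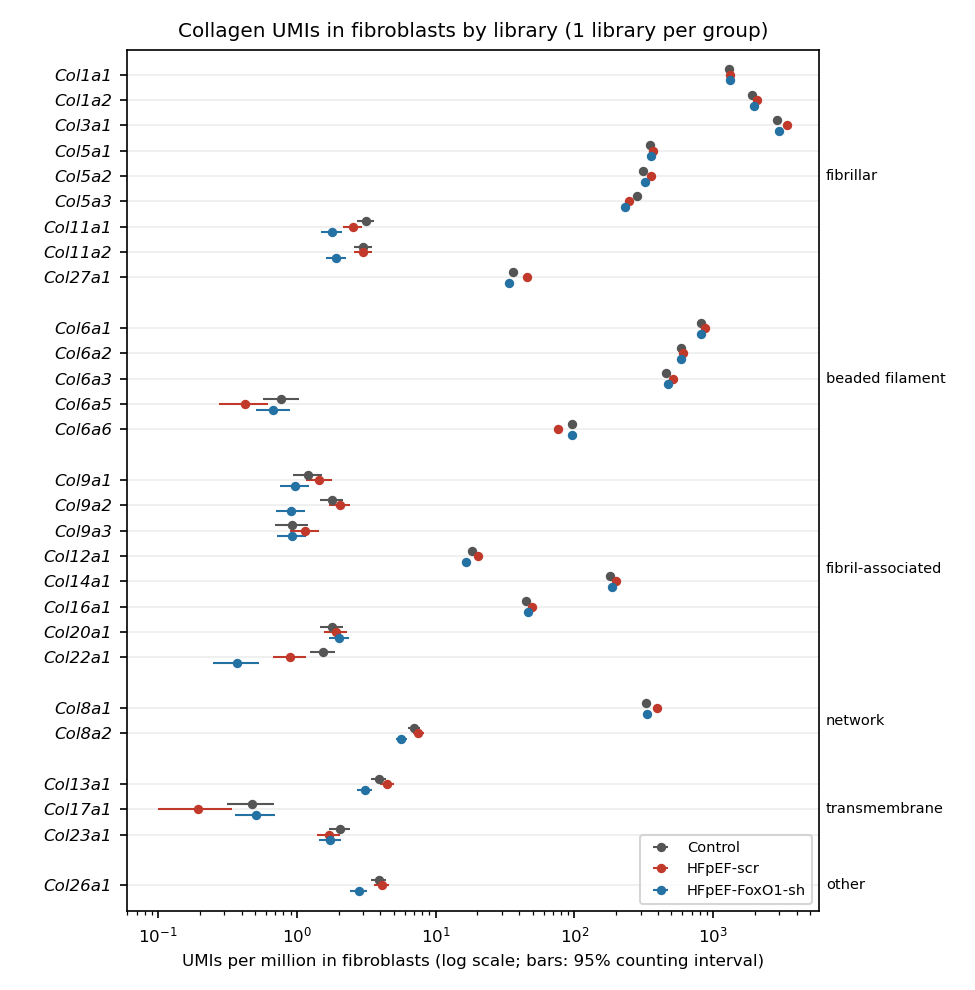
CPM in fibroblasts (log axis) for the 28 members with at least 50 UMIs, grouped by structure, with 1 point per library and its 95% counting interval. The 3 libraries lie close together for the abundant genes such as Col1a1 (1309, 1326 and 1317), and apart for sparse genes such as Col22a1 (1.53, 0.889 and 0.372).

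Summed over all 35 members, fibroblasts held 9644, 10626.8 and 9801 CPM. HFpEF-scr stood 1.10 times above Control (1.10 to 1.11), and the library labelled HFpEF-FoxO1-sh at 0.922 of HFpEF-scr (0.919 to 0.925). HFpEF-scr was thus the highest of the 3. Without Col3a1 the ratios were 1.07 and 0.947. The median mitochondrial share of fibroblasts (12.6%, 12.2% and 8.69%) was lower in the library labelled HFpEF-FoxO1-sh, and with mitochondrial UMIs left out of the denominator the second ratio was 0.889, further from 1.

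By the rule of a ratio of at least 1.5 with at least 50 UMIs in the 2 libraries, 27 members could be counted for HFpEF-scr over Control. None was higher and 2 were lower, Col6a5 and Col22a1. Over all 13455 genes counted, 1.75% were higher and 2.02% lower. When the library labelled HFpEF-FoxO1-sh was divided by HFpEF-scr, 28 members were counted, of which 2 were higher (Col6a5 and Col17a1) and 3 lower (Col9a2, Col11a2 and Col22a1), against 1.98% and 1.7% of 13610 genes. All of these are sparse members, and the collagens that make up most of the RNA stayed well inside the limit. The median log2 ratio of the members was 0.10 in the first comparison and -0.14 in the second, and that of all genes counted -0.02 and 0.05.

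At the lower limit of a ratio of 1.2 with at least 200 UMIs, 23 members were counted for HFpEF-scr over Control. Col8a1 and Col27a1 were higher, and Col6a6, Col11a1 and Col23a1 lower, where 5.18% and 7.36% of 11609 genes were. The counting intervals of Col11a1 (0.810, 0.651 to 1.008) and Col23a1 (0.833, 0.635 to 1.091) include 1. For the second comparison 22 were counted: Col6a6 was higher, and Col8a2, Col11a1, Col11a2, Col12a1, Col13a1, Col26a1 and Col27a1 were lower, against 8.03% and 4.21% of 11775 genes. Of the members with over 2000 UMIs in each library, Col8a1, Col27a1 and Col6a6 were the ones past this limit in either comparison.

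**Figure D2:**
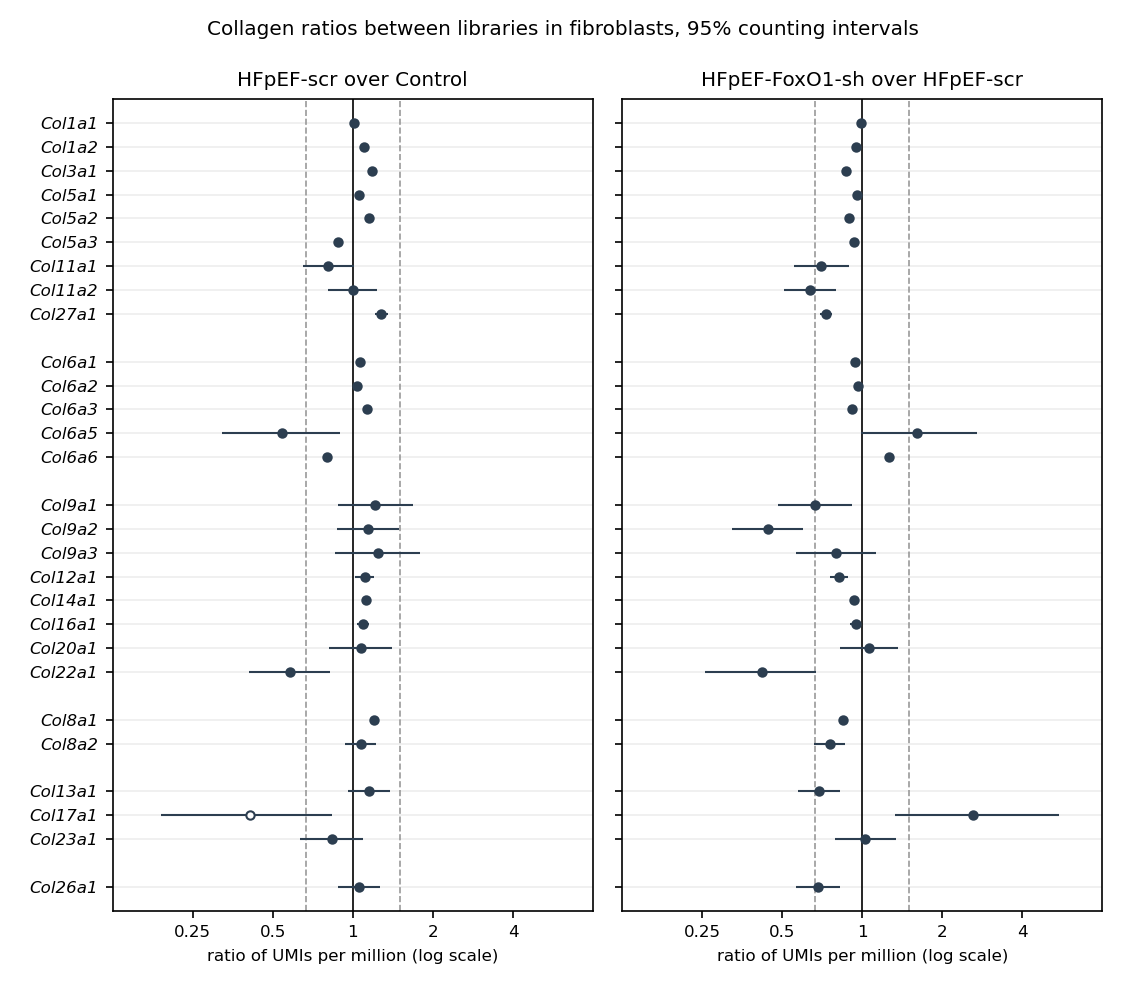
Ratio of fibroblast CPM for each of the 28 members (log axis), with Control as the base on the left (HFpEF-scr above it) and HFpEF-scr as the base on the right (the library labelled HFpEF-FoxO1-sh above it), with 95% counting intervals and dashed lines at 1.5 and its inverse. The abundant members lie between the lines, with Col3a1 at 1.18 and 0.870, and the points beyond them have wide intervals. The open point is Col17a1 on the left, which had under 50 UMIs.

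Among the fibrillar members, Col1a1 and Col1a2 encode the chains of type I collagen, the bulk of the heart's fibres. Col1a1 was level across libraries at 1309, 1326 and 1317 CPM (ratios 1.013, 1.003 to 1.023, and 0.993, 0.984 to 1.00). Col1a2 was at 1901, 2087 and 1984 CPM, which gave ratios of 1.10 and 0.951. Its partner chain did not follow it, and the UMI ratio of Col1a1 to Col1a2 was 0.688, 0.635 and 0.664.

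Col3a1 encodes the only chain of type III collagen, which co-assembles with type I in more compliant fibres. It was at 2889, 3423 and 2979 CPM, highest in HFpEF-scr. The ratio to Control was 1.18 (1.18 to 1.19) and that of the library labelled HFpEF-FoxO1-sh to HFpEF-scr 0.870 (0.865 to 0.876). Over the 12 alternative ways of selecting and scaling the cells that were tried for single members, these ratios ranged from 1.178 to 1.198 and from 0.839 to 0.881. With Col1a1 level, the UMI ratio of Col3a1 to Col1a1 was 2.21, 2.58 and 2.26. It was 2.51, 2.54 and 2.40 in smooth muscle cells, where the 3 counting intervals overlap. In endocardial cells it was 4.51, 7.81 (5.92 to 10.5) and 4.22, highest in HFpEF-scr. Col3a1 was not higher there, at 159.4, 158.3 and 147.2 CPM, while Col1a1 gave 154, 57 and 104 UMIs. The ratio was 2.73, 2.62 and 3.24 in pericytes and 2.92, 3.33 and 3.43 in Schwann cells. The last value was the highest in both classes, but the 3 counting intervals overlap in each. In mesothelial cells the ratio was 4.22, 5.04 and 5.49. There the interval of HFpEF-scr (4.36 to 5.84) overlaps both others, and its cells were too few for a comparison between libraries.

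Type V collagen sits inside the fibre and sets its width, and its 3 chains did not move alike. Col5a2, the neighbour of Col3a1, was at 311.1, 358.8 and 320.3 CPM (1.15, 1.13 to 1.18, and 0.893). Col5a1 showed a smaller gap, at 350.2, 370.0 and 355.1 CPM (1.06 and 0.960). Col5a3 ran the other way in the first comparison, at 283.2, 248.2 and 231.1 CPM (0.876, 0.857 to 0.896, and 0.931), so Control was the highest of the 3 libraries. The UMI ratio of Col5a3 to Col5a2 accordingly was 0.910, 0.692 and 0.721. The second direction of Col5a3 held under 11 of 12 alternatives.

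Col27a1, a fibrillar gene best known from cartilage, was at 35.8, 45.8 and 33.5 CPM. Its ratios of 1.28 (1.21 to 1.35) and 0.732 (0.694 to 0.773) were the widest swing in both directions among members with over 1000 UMIs per library. The type XI chains, which share the place of type V in cartilage fibres, were sparse: Col11a1 was at 3.13, 2.54 and 1.78 CPM (186, 157 and 134 UMIs), and Col11a2 at 3.01, 3.01 and 1.91 CPM (179, 186 and 144 UMIs). For Col11a2 the second ratio was 0.636 (0.508 to 0.795), and for Col11a1 0.702 (0.553 to 0.889). Most of their UMIs lay in 1 fibroblast cluster, led by Wif1, that held fewer cells in the library labelled HFpEF-FoxO1-sh. The part of that cell number in these ratios was not tested.

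Type VI collagen anchors cells to the matrix in beaded filaments made of a Col6a1, a Col6a2 and a further chain. Col6a1 was at 821.2, 871.0 and 815.8 CPM and Col6a2 at 584.4, 604.6 and 585.2 CPM, with UMI ratios between them of 1.41, 1.44 and 1.39. The common further chain, Col6a3, was at 460.1, 517.9 and 475.8 CPM (1.13 and 0.919), with the second direction the other way (log2 ratio 0.05) under a mitochondrial limit of 10%. Col6a6, an alternative to it, was at 95.5, 76.5 and 96.2 CPM, so here HFpEF-scr was the lowest library. Its ratios were 0.801 (0.770 to 0.832) and 1.26 (1.21 to 1.30), in the opposite sense to Col6a3. Per Col6a3 UMI there were 0.208, 0.148 and 0.202 of Col6a6. Col6a6 and Col6a3 kept these directions under 12 of 12 alternatives in the first comparison, and Col6a6 in the second as well.

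The other alternative chain with UMIs, Col6a5, is sparse. It gave 46, 26 and 51 UMIs in fibroblasts, from 24, 20 and 29 cells. Its ratios of 0.543 (0.322 to 0.896) and 1.61 (0.987 to 2.69) passed the call limit, but the second interval includes 1 and that direction reversed when cells were thinned to equal depth.

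Of the fibril-associated members, Col14a1 bridges neighbouring fibres and was at 179.7, 200.7 and 186.7 CPM (1.12 and 0.930). Col12a1, its close relative in tendon and other loaded tissue, was at 18.3, 20.3 and 16.6 CPM (1.11, 1.022 to 1.204, and 0.819, 0.757 to 0.887). Col16a1 was at 45.0, 49.2 and 46.6 CPM. These 3 had their highest level in HFpEF-scr, as Col3a1 did.

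The chains of type IX, a fibril-associated collagen of cartilage, were near 1 CPM. Col9a1 was at 1.196, 1.455 and 0.9702 CPM, Col9a3 at 0.926, 1.15 and 0.917, and Col9a2 at 1.78, 2.04 and 0.904. Col9a2 passed the limit in the second comparison, with 126 UMIs in HFpEF-scr and 68 in the library labelled HFpEF-FoxO1-sh (0.444, 0.325 to 0.600). Those UMIs came from 90, 104 and 63 cells. Col9a1 missed the limit narrowly at 0.667 (0.483 to 0.918).

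Col22a1, a collagen of tissue junctions, was lower in each successive library of the order used here. It gave 91, 55 and 28 UMIs, or 1.53, 0.889 and 0.372 CPM, and the ratios were 0.580 (0.407 to 0.8198) and 0.419 (0.256 to 0.671). The UMIs came from only 27, 23 and 14 cells, so these counting intervals understate the uncertainty. Col20a1 was at 1.78, 1.91 and 2.02 CPM in fibroblasts, and its level was higher in Schwann cells.

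Among the network members, Col8a1, the type VIII chain that vessels and injured heart tissue are known to make, was at 328.9, 395.8 and 334.4 CPM. Its ratios were 1.204 (1.181 to 1.226) and 0.845 (0.830 to 0.860), the same order as Col3a1. Col8a2, the second type VIII chain, was at 7.006, 7.502 and 5.675 CPM (1.07, 0.936 to 1.22, and 0.757, 0.662 to 0.865). The UMI ratio of Col8a1 to Col8a2 was 46.9, 52.8 and 58.9. Col10a1 was at the floor.

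The transmembrane members were sparse in fibroblasts. Col13a1, found at cell adhesions, was at 3.89, 4.48 and 3.08 CPM (1.15, 0.963 to 1.38, and 0.689, 0.576 to 0.823). Col23a1 was at 2.04, 1.70 and 1.74 CPM. Col17a1, known from the basal keratinocytes of skin, gave 28, 12 and 38 UMIs, and its second ratio of 2.60 (1.33 to 5.47) rests on the 12. Col26a1, which belongs to no larger structural group, was at 3.89, 4.09 and 2.79 CPM (1.05 and 0.682, 0.566 to 0.823).

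By summed group, every structural class had its highest fibroblast level in HFpEF-scr. The ratios were 1.11 and 0.918 for fibrillar, 1.06 and 0.953 for beaded filament, 1.11 and 0.919 for fibril-associated, 1.201 and 0.843 for network and 1.03 and 0.826 for transmembrane members. For transmembrane members the first interval (0.892 to 1.18) includes 1. The 9 basement membrane collagens left out of the set had 1.05 and 0.903. Of those 9, Col4a5 alone passed the 1.5 limit, in the second comparison, at 84.9, 119.2 and 73.1 CPM (0.613).

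The fibroblasts fell into 11 clusters, and the 9 with at least 50 cells in every library are named here by their leading genes. The cluster led by Cilp and Dio2, where Cilp encodes a matrix protein of cartilage and injured heart, held 11239.8, 13357.5 and 11348.5 CPM of members in sum. The cluster led by Wif1 and 1500015O10Rik held 5288, 5832 and 6427 CPM. These are descriptions of clusters built from the same cells, though without Col genes.

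Col3a1 itself was lowest in the Wif1 cluster at 1220, 1337 and 1565 CPM. In the Cilp cluster it was at 3441 and 4267 CPM in Control and HFpEF-scr, the highest there, and in the library labelled HFpEF-FoxO1-sh the cluster led by Syn2 and Cd40 was the highest at 3505. Col8a1 followed the Cilp cluster, at 859.9, 1031 and 945.7 CPM, against 30.5, 62.2 and 61.9 in the Wif1 cluster. Col16a1 and Col5a2 were also highest in the Cilp cluster in all 3 libraries. The sparse Col9a2 was there too, at 10.5, 11.3 and 5.00 CPM, so its lower count in the library labelled HFpEF-FoxO1-sh was seen within its own cluster (0.444).

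Type VI and type V chains marked other clusters. Col5a3 was highest in the cluster led by Ifitm1 and Blnk (522.5, 434.6 and 401.7 CPM) and lowest in the Wif1 cluster (23.8, 28.1 and 25.1). Col26a1 was highest in the Ifitm1 cluster as well, at 8.79, 9.47 and 6.68 CPM. Col6a3 was lowest in the cluster led by Sema3c and Cmah at 121.4, 126.0 and 131.4 CPM, and stood at 811.0 and 892.4 CPM in the Ifitm1 cluster of Control and HFpEF-scr. Its counterpart Col6a6 was highest in the cluster led by Inmt and Cnmd, at 200.1, 167.6 and 183.2 CPM. Col14a1 was highest in the cluster led by Igfbp3 and Smad6 (376.9, 426.9 and 410.4 CPM) and lowest in the Ifitm1 cluster (47.45, 54 and 51.13).

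The Wif1 cluster had the lowest summed level of the members among the 9 clusters, but the highest level of 7 sparser ones. Wif1 encodes a secreted inhibitor of Wnt signalling. Of the fibroblast UMIs of Col9a1, 69 of 71, 90 of 90 and 73 of 73 lay in it, and of Col11a2 164 of 179, 168 of 186 and 132 of 144. Col11a1 was at 17.5, 19.8 and 15.9 CPM there, Col8a2 at 27.3, 34.8 and 29.5, Col13a1 at 23.5, 31.3 and 32.6, Col12a1 at 76.9, 88.4 and 88.9 and Col23a1 at 6.63, 4.79 and 6.59. All 7 had their highest fibroblast level in this cluster in each library. Clusters were read only for members with at least 200 UMIs, and Col9a1, Col11a1 and Col11a2 passed that limit only through this cluster. The share of all genes that are highest in it is not given here, so the 7 are not read as a trait of collagens. The cluster held 762, 798 and 623 cells, which is fewer in the library labelled HFpEF-FoxO1-sh although that library had most fibroblasts. Within it, the second ratio was 0.880 for Col9a1, 0.805 for Col11a1, 0.852 for Col11a2, 0.846 for Col8a2, 1.006 for Col12a1 and 1.04 for Col13a1, each nearer to 1 than over all fibroblasts. Col23a1 was further from 1 there, at 1.37 against 1.03. The part of the cluster's cell number in the ratios over all fibroblasts was not tested.

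**Figure D3:**
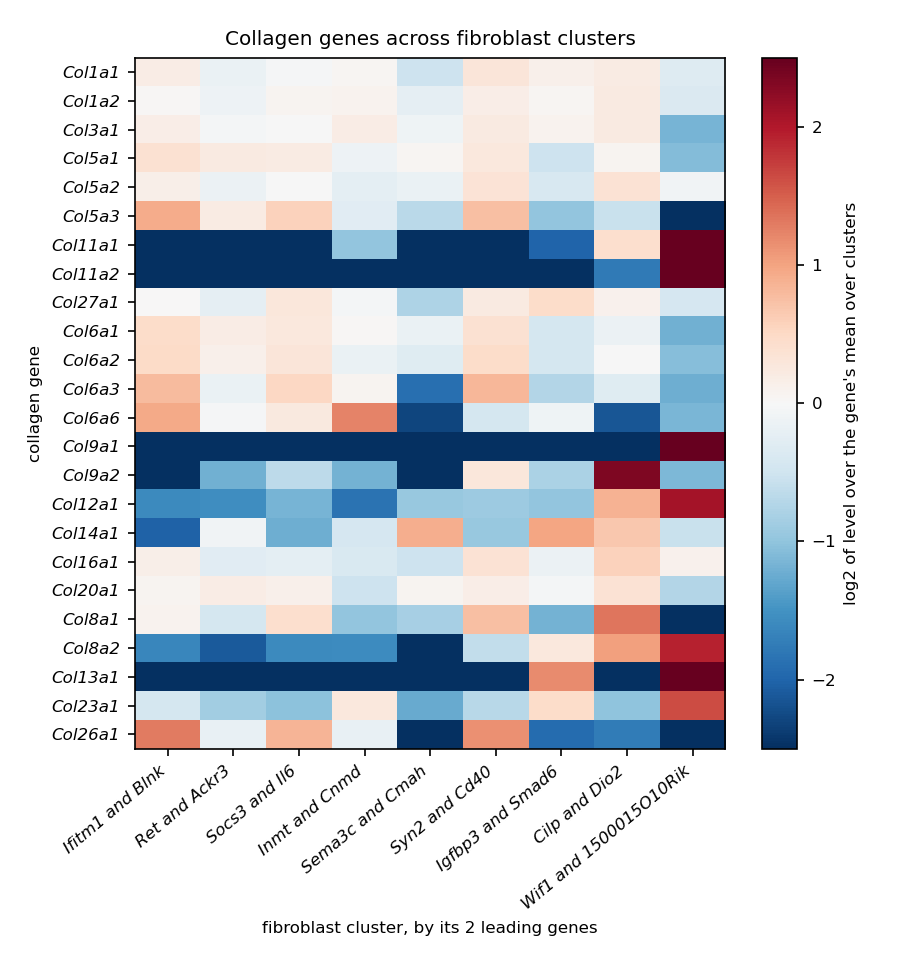
Level of each member with at least 200 UMIs in the 9 fibroblast clusters, as the log2 of its level (median of the 3 libraries) over its mean across clusters, with the colour scale ending at 2.5 in both directions. Col8a1 stands out in the Cilp cluster, Col6a6 in the Inmt cluster, Col14a1 in the Igfbp3 cluster, and Col9a1, Col11a1, Col11a2, Col13a1 and Col8a2 in the Wif1 cluster.

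Between libraries, the ratio of HFpEF-scr to Control for members in sum was above 1 in 9 of 9 clusters, up to 1.19 in the Cilp cluster. The Sema3c cluster was level, at 1.002 (0.988 to 1.016). The library labelled HFpEF-FoxO1-sh was below HFpEF-scr in 7 of 9, from 0.850 in the Cilp cluster to 1.10 in the Wif1 cluster. Col3a1 was above Control in 9 of 9 (1.04 to 1.32) and then below HFpEF-scr in 8 of 9, with the Wif1 cluster at 1.17. Col8a1 gave 9 of 9 and 8 of 9, and its first ratio was largest in the Wif1 cluster (2.04), where its level is lowest. Col5a2 gave 9 of 9 and 7 of 9, and Col27a1 8 of 9 and 8 of 9. Col6a6 was below Control in 6 of 9 and above HFpEF-scr in 8 of 9. The exceptions were the Cilp (1.27), Sema3c (1.08) and Wif1 (1.05) clusters in the first comparison and the Cilp cluster (0.823) in the second. Col1a1 was above in 6 of 9 and then above again in 7 of 9, so it had no common order. Col5a3 was below Control in 6 of 9, with the Igfbp3 (1.18), Cilp (1.10) and Wif1 (1.18) clusters above it, and below HFpEF-scr in 7 of 9. Col6a3 was above Control in 9 of 9 but below HFpEF-scr in only 4 of 9.

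The mix of clusters also differed between libraries. The cluster led by Inmt held 1200, 840 and 1826 cells and the one led by Socs3 and Il6 534, 674 and 1446. With all 9 clusters given equal weight, the summed second ratio was 0.939.

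Outside fibroblasts a few members reached higher levels than in fibroblasts. In Schwann cells, the glia of peripheral nerve (79, 102 and 162 cells), Col20a1 was at 97.2, 107.9 and 176.7 CPM, 54.4 to 87.5 times the fibroblast level. UMIs of Col20a1 were found in 30.4%, 36.3% and 38.9% of Schwann cells and in 0.640%, 0.327% and 0.552% of macrophages, a class taken as lacking it. With cells thinned to 1000 UMIs these shares were 11.4%, 14.9% and 17.3%, and 0.0914%, 0.0654% and 0.101%. Median depth was 6110, 5704 and 3889 UMIs in Schwann cells and 6628, 5906 and 6229 in macrophages.

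Schwann cells also exceeded fibroblasts in Col16a1 (251.9, 251.9 and 310.2 CPM, 5.11 to 6.66 times) and Col27a1 (160.7, 142.3 and 166.2 CPM, 3.11 to 4.96 times). Col12a1 came next, at 49.6, 78.5 and 78.5 CPM. Of all 5377 genes counted in this class, 16.7% were at least 1.5 times above fibroblasts in every library. Fibroblast markers stood at a median of 17.1%, 18.5% and 6.601% of their fibroblast level in Schwann cells, and their part in these levels was not tested. Col9a3 and Col28a1, named after their values were seen, gave 15, 12 and 22 and 9, 8 and 8 UMIs in these few cells, against 2, 5 and 5 of Col28a1 in all fibroblasts.

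Endocardial cells, which line the heart's chambers, held more Col23a1 UMIs than any other class, with 474 of 878, 252 of 581 and 315 of 722 in kept cells. The gene was at 108.9, 89.7 and 105.6 CPM there and at 97.4, 87.9 and 101.0 CPM in lymphatic endothelial cells, 52.8 to 60.7 and 47.8 to 58.0 times the fibroblast level. Fibroblasts accounted for only 13.8%, 18.1% and 18.1% of its UMIs. UMIs of Col23a1 were found in 37.2%, 31.9% and 33.8% of endocardial cells, in 37.9%, 36.0% and 40.6% of lymphatic cells, and in 0.0914%, 0.196% and 0.151% of macrophages. Thinned to 1000 UMIs, endocardial cells gave 7.17%, 6.47% and 8.10% (with 5, 6 and 12 shallower cells left out) and macrophages 0.0914%, 0.0654% and 0 of 1985 cells, for which the exact 95% interval reaches 0.186%. In the wider endothelial classes, 18.2% of 10057 genes in endocardial and 20.9% of 9098 genes in lymphatic cells were at least 1.5 times above fibroblasts.

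Col25a1, a membrane collagen known from neurons, separated these classes. It gave 82, 55 and 51 UMIs in endocardial cells (18.8, 19.6 and 17.1 CPM) and 0, 0 and 1 in lymphatic cells. Its endocardial level was 55.0 to 124.3 times that of fibroblasts. Col13a1 was at 9.19, 11.7 and 6.03 CPM in endocardial cells, 1.96 to 2.62 times fibroblasts. Fibroblast markers were at a median of 2.80%, 2.18% and 2.87% of their fibroblast level there.

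Type V collagen in endocardial cells was unlike that of fibroblasts in its chain balance (chosen after values were seen). Col5a2 was at 133.7, 136.6 and 141.8 CPM, 0.430, 0.381 and 0.443 of the fibroblast level, and found in 51.1%, 47.4% and 50.8% of cells. Col5a1 was scarce, so that the UMI ratio of Col5a1 to Col5a2 was 0.165, 0.135 and 0.158 against 1.13, 1.03 and 1.11 in fibroblasts. Macrophages, with 2.47%, 2.87% and 1.76% of cells holding a Col5a2 UMI, show the level in cells taken as lacking it.

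In capillary and other endothelial cells Col28a1 reached 18, 41 and 18 UMIs (3.399, 5.696 and 3.457 CPM), 52.0 to 100.9 times the fibroblast level, where 19.5% of 11155 genes were 1.5 times above fibroblasts. It was found in 2.96%, 4.67% and 2.94% of these cells. All members in sum were at 1577, 1279 and 1662 CPM in endothelial cells, lowest in HFpEF-scr, with ratios of 0.811 (0.787 to 0.835) and 1.30 (1.26 to 1.34). The fibroblast markers moved with this sum, at 14.1%, 10.8% and 14.7% of their fibroblast level, and their part in it was not tested.

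**Figure D4:**
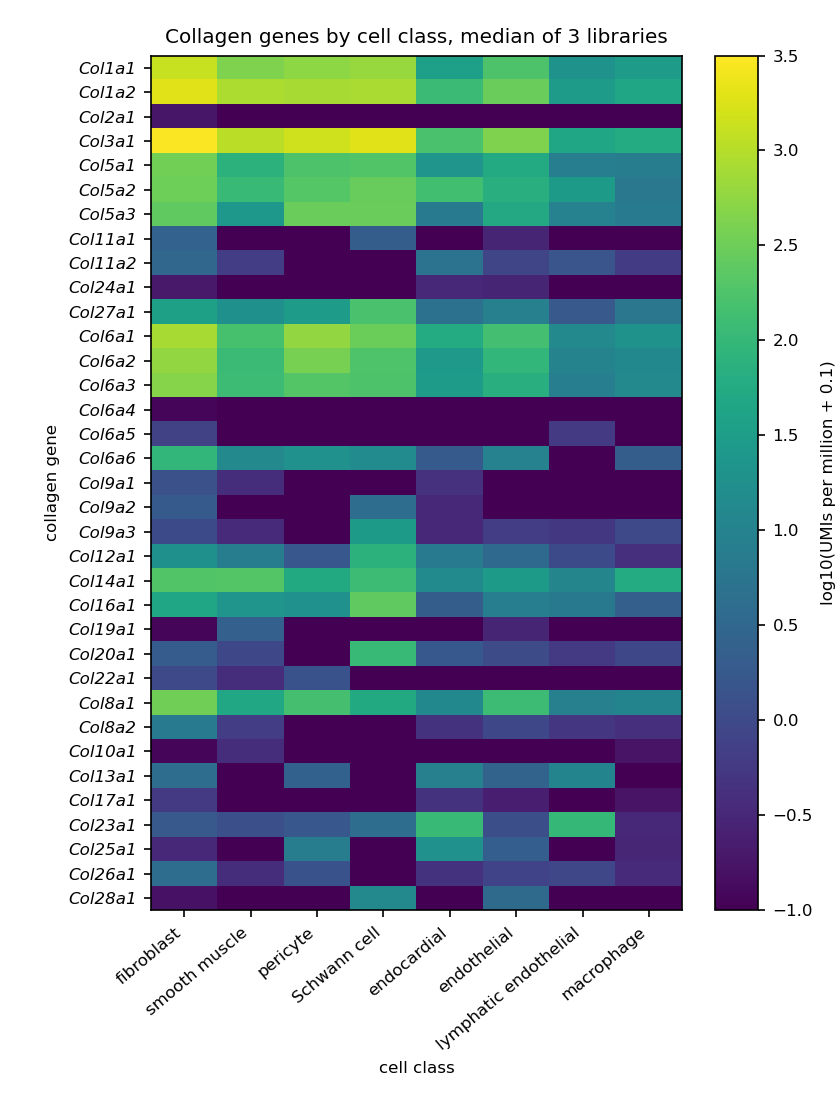
Level of each of the 35 members in 8 cell classes, as log10 of CPM plus 0.1 (median of the 3 libraries). Fibroblasts hold the highest level of the type I, III and main type VI chains, while Col20a1 peaks in Schwann cells, Col23a1 in endocardial and lymphatic endothelial cells, Col25a1 in endocardial cells and Col28a1 in Schwann and endothelial cells.

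Macrophages held 1 member out of proportion, Col14a1 (chosen after values were seen). It was at 58.8, 66.2 and 53.2 CPM, 32.7%, 33.0% and 28.5% of its fibroblast level. The other 10 most abundant members were at 1.98% to 3.33%, 2.00% to 3.91% and 1.75% to 3.17% of theirs, close to the fibroblast markers at 2.39%, 2.43% and 2.06%. Col14a1 UMIs were found in 24.1%, 25.7% and 22.2% of macrophages, and those of Col3a1, which is far more abundant in fibroblasts, in 6.95%, 7.71% and 7.53%. Thinned to 1000 UMIs the shares were 5.39%, 6.99% and 5.74% for Col14a1 and 2.65%, 2.03% and 2.62% for Col3a1. In endocardial cells Col14a1 was found in 3.55%, 4.10% and 5.14%.

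Within macrophages the gene was uneven. The cluster led by C1qa and C1qc (419, 736 and 885 cells) held 109.8, 102.1 and 103.5 CPM of Col14a1, with UMIs in 39.4%, 34.2% and 34.6% of cells. The cluster led by Folr2, a marker of resident macrophages, held 31.9, 36.7 and 22.9 CPM. The first cluster was thus the higher in all 3 libraries.

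Smooth muscle cells were the other large non-fibroblast source of Col14a1, at 218.0, 195.7 and 180.0 CPM, close to the fibroblast level (1.213, 0.9751 and 0.964 of it). They divided into a pair of clusters. The one led by Acta2 and Tagln, with Sost the first gene over the other smooth muscle cells (213, 184 and 176 cells) held 363.0, 329.0 and 323.7 CPM of Col14a1 and the one led by Myh11 and Acta2 (204, 190 and 200 cells) 47.2, 46.3 and 20.7 CPM. Col3a1 followed the same split, at 1555, 1763 and 1508 against 527.3, 480.0 and 340.5 CPM. Members in sum were at 3356, 3580 and 3031 CPM in smooth muscle (1.07 and 0.847), with fibroblast markers at 13.5%, 12.1% and 9.71% of their fibroblast level.

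In smooth muscle cells, as in fibroblasts, HFpEF-scr had the highest level of Col8a1 and the lowest of Col6a6. Col8a1 was at 50.3, 77.4 and 48.2 CPM (1.54 and 0.623), and Col6a6 gave 80, 23 and 46 UMIs, or 19.1, 6.52 and 12.9 CPM (0.342 and 1.98). The part of fibroblast RNA in these values was not tested. Of the 22, 12 and 7 Col19a1 UMIs in kept cells, 20, 8 and 6 were in smooth muscle cells and 1, 1 and 0 in fibroblasts. Col10a1 gave 12, 1 and 0, and the 12 came from 1 cell (both named after values were seen).

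**Figure D5:**
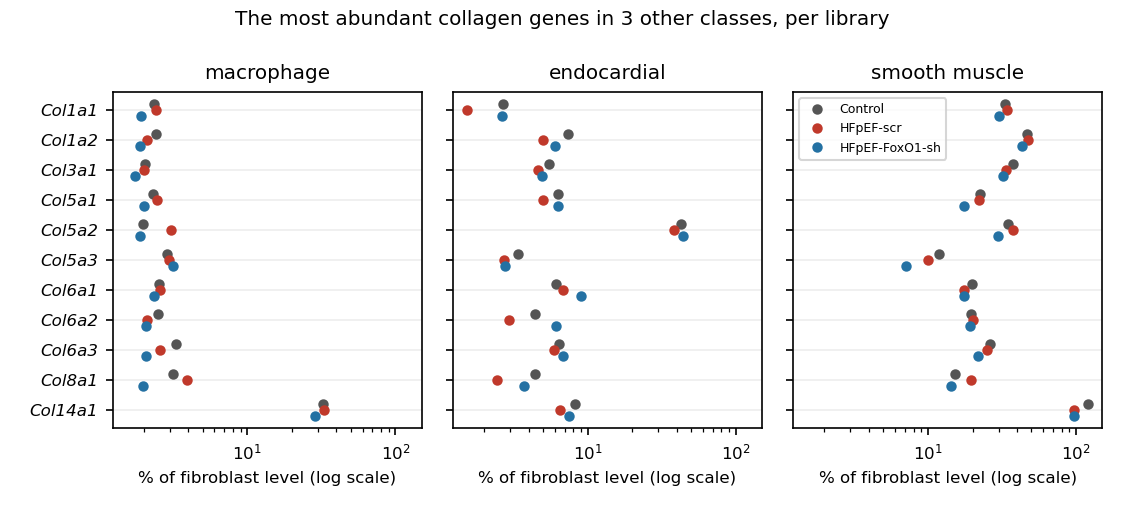
Level of the 11 most abundant members in macrophages, endocardial cells and smooth muscle cells as a percent of their fibroblast level, with 1 point per library. Col14a1 stands above the other 10 in macrophages at 28.5% to 33.0% and in smooth muscle, where it is near its fibroblast level, and Col5a2 in endocardial cells, at 0.381 to 0.443 of its fibroblast level.

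Pericytes, the cells around capillaries, showed wide library differences in few cells (131, 60 and 320). Members in sum were at 5001, 6471 and 3141 CPM, with ratios of 1.29 and 0.485. Fibroblast markers were at 36.6%, 30.1% and 18.1% of their fibroblast level and the median depth at 4998, 5170 and 3358 UMIs. The part of these in the sums was not tested. Col5a3 was at 324.5, 290.3 and 217.4 CPM here, 0.941 to 1.17 of the fibroblast level, a share higher than that of the fibroblast markers.

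Mesothelial cells, of the heart's outer lining, were too few in HFpEF-scr (46 cells, against 109 and 92) for a comparison between libraries. They held Col3a1 at 2101, 2242 and 2120 CPM and Col1a2 at 1175, 1058 and 1102 CPM with little Col6a3. The UMI ratio of Col6a3 to Col6a1 was 0.0847, 0.226 and 0.0895 there and 0.560, 0.595 and 0.583 in fibroblasts. Col6a5 gave 12, 6 and 19 UMIs in these cells. Col16a1 was at 85.1, 105.2 and 94.3 CPM, above the fibroblast level. Col14a1 was at 212.1, 109.2 and 299.2 CPM. That was above the fibroblast level in Control and the library labelled HFpEF-FoxO1-sh, but below it in HFpEF-scr.

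Some classes carried fibroblast markers at a high level. In B cells, members in sum were at 4716, 5057 and 701.8 CPM, and fibroblast markers at 51.1%, 47.5% and 7.57% of their fibroblast level, so both were lowest in the library labelled HFpEF-FoxO1-sh. Markers were also lowest there in monocytes (8.44%, 7.93% and 1.88%), natural killer cells (13.4%, 12.4% and 2.37%) and neutrophils (30.99%, 31.17% and 6.215%). The second ratio of members in sum was 0.189 in monocytes and 0.181 in natural killer cells. T cells differed, with markers lowest in HFpEF-scr (5.57%, then 5.70%) and a second ratio of 1.64. Clusters named for platelet, erythroid and cardiomyocyte markers held fibroblast markers at 57.9% to 98.4%. No collagen level is read from these classes. Macrophages, read above, held the markers at 2.39%, 2.43% and 2.06%. The part of such fibroblast RNA in the second comparison outside fibroblasts was not tested.

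Chains are hydroxylated, folded, trimmed and cross-linked by enzymes and chaperones that were read in the same fibroblasts. Of 17 genes for hydroxylation and glycosylation, all 17 were counted and none passed the 1.5 limit in either comparison. The median log2 ratios were 0.03 and 0.02, where all genes had -0.02 and 0.05. Ppib, a prolyl isomerase, was at 731.5, 741.2 and 808.6 CPM, and P4hb, the shared subunit of the prolyl hydroxylases, at 266.7, 291.9 and 305.7 CPM.

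Of the 6 genes for chaperoning and secretion none passed, with medians of -0.0037 and 0.12. Serpinh1, the collagen-specific chaperone Hsp47, was at 843.0, 851.6 and 969.7 CPM, so it was highest in the library labelled HFpEF-FoxO1-sh while Col3a1 was not. Mia3, which loads procollagen into transport carriers, was at 102.5, 96.1 and 105.9 CPM. Of the 8 genes for propeptide removal 7 were counted, and Tll2 was lower in the second comparison (0.595, 0.429 to 0.821). Pcolce, an enhancer of propeptide cleavage, was at 688.2, 696.2 and 790.0 CPM, the same order as Serpinh1. None of the 5 lysyl oxidases passed. Loxl1 was at 508.1, 553.6 and 532.1 CPM and Loxl2 at 152.1, 166.2 and 150.2 CPM.

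Small proteoglycans sit on the fibre surface and, with Sparc, formed the list whose medians lay furthest from 0 among the 7 lists, at log2 ratios of 0.18 and -0.24. Lum, the keratan sulphate proteoglycan lumican, was at 1864, 2508 and 1878 CPM (1.35, 1.34 to 1.36, and 0.749, 0.744 to 0.754). Aspn was at 420.0, 574.4 and 448.4 CPM (1.37 and 0.781). Fmod, a regulator of fibre growth, was at 45.5, 51.5 and 30.1 CPM, and was the only 1 of the 8 genes of this list past the 1.5 limit, in the second comparison (0.585, 0.554 to 0.618). Dcn, the most abundant of them, was level at 16710.4, 16633.5 and 16635.8 CPM. Of 9 collagen receptors 8 were counted and none passed. Itgb1, the shared integrin subunit, was at 418.4, 447.0 and 424.9 CPM, and the receptor kinase Ddr2 at 182.8, 208.6 and 205.4 CPM.

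Finally, promoters were searched for letters that the FoxO family binds, since 1 group carried a hairpin against FoxO1. RefSeq promoters of GRCm38.p6 (250 bases before the start) were at hand for 27 members, with 29 promoters in all. Col1a1, Col2a1, Col5a2, Col9a3, Col12a1, Col14a1, Col22a1 and Col26a1 were not matched. GTAAACA, read on both strands (TGTTTAC), occurred in 1 of the 29, that of Col6a1, and in 3.17% of 32851 promoters. The letters CCAAT, searched in the same way, occurred in 8 of 29 member promoters against 33.9% of all. Likewise TATAAA occurred in 5 of 29, Col3a1 included, against 12.4%. The Col6a1 promoter is shown because it holds the match, in capitals, 211 to 205 bases before the start.

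Col6a1, chr10:76726045-76726294, minus strand: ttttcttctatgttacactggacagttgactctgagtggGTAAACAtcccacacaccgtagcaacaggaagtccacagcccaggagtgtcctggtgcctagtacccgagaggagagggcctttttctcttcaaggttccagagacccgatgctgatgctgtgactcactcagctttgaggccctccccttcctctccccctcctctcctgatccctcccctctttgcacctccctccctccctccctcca

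Col6a1 itself was among the steadier members (1.06 and 0.937 in fibroblasts). A match of letters is not a binding site, and windows without it say nothing of the factor.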

How the data were processed

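Single-cell RNA libraries of the left ventricle, 1 per group, were deposited as filtered matrices of raw UMI counts; the authors made these counts with Cell Ranger 6.1.2 on mm10, per the submitters' processing notes, and the annotation release is not given in the sources used here. Barcodes needed a minimum of 500 UMIs and 300 genes, with a mitochondrial share of no more than 20%. Doublets marked by Scrublet (expected rate 12%) were removed, which took 182, 342 and 537 cells from Control, HFpEF-scr and HFpEF-FoxO1-sh. Cells of all 3 libraries were clustered together in scanpy 1.11.5 (2000 variable genes without Col genes, 30 principal components, 15 neighbours, Leiden resolution 1.0), and 34 of 35 clusters were named from 20 marker lists (206 of 209 genes found). For each class in each library, summed counts were expressed per 1000000 UMIs of that class (CPM), with no ambient RNA correction. Ratios carry exact conditional binomial 95% intervals, CPM exact Poisson and shares Clopper-Pearson intervals. A call needed a ratio of at least 1.5 with at least 50 UMIs in the 2 libraries, and a second rule 1.2 with 200. Classes were compared where every library had at least 50 cells, which 14 of 18 classes met. The ratio, its interval and the call were run on simulated Poisson counts with known folds. That simulation held no spread between cells or between libraries, so it cannot show how the intervals fare under such spread. Python 3.11.15, numpy 2.4.6, scipy 1.17.1 and pandas 2.3.3 were used.

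Members, the 7 pathway lists (62 genes) and the alternatives were chosen with earlier results of these data known. Every member with at least 50 fibroblast UMIs was named with its values. Outside fibroblasts, up to 3 members per class with the highest ratio to fibroblasts were named (at least 1.5 in every library and 50 UMIs). From each pathway list, genes past the call rule, or the 2 with most UMIs, were named, with a few others added after their values were seen. For members with at least 200 UMIs the highest and lowest fibroblast clusters were read. Unnamed clusters, the kit's barcodes outside the filters and the 9 basement membrane collagens, save their summed level and called gene, were left out.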

Additional observations from a re-analysis of the deposited data

Results flagged for a closer look

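For 6 members the same library comparison ran in opposite directions in different cell classes, each past a ratio of 1.5 with at least 50 UMIs. No difference between classes was tested, since each group had 1 library. The share of all genes that do the same is not given here, so the 6 are not read as a trait of collagens. For HFpEF-scr over Control, Col8a1 was at 2.01 in pericytes and 0.549 in lymphatic endothelial cells. With HFpEF-scr as the base for the library labelled HFpEF-FoxO1-sh, Col1a1 was at 1.72 in endocardial cells and 0.355 in pericytes, and Col5a1 at 1.52 in endothelial cells and 0.376 in pericytes. Col5a3 was at 2.93 in lymphatic endothelial cells and 0.663 in smooth muscle cells, and Col6a2 at 2.00 in endocardial and 0.476 in Schwann cells. Col14a1 was at 1.72 in lymphatic endothelial cells and 0.161 in pericytes. Fibroblast markers, as a percent of their fibroblast level, were at 36.6%, 30.1% and 18.1% in pericytes, 17.1%, 18.5% and 6.601% in Schwann cells, 14.1%, 10.8% and 14.7% in endothelial cells, 2.80%, 2.18% and 2.87% in endocardial cells, 13.5%, 12.1% and 9.71% in smooth muscle cells and 2.09%, 1.45% and 1.38% in lymphatic endothelial cells. Their part in these ratios was not tested.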

How the results depend on the processing

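With 1 library per group no replicate could be left out, and intervals cover counting error only. No paired analysis was possible because the groups share no replicate number beyond their single libraries. Single members kept their direction for 26 to 28 of 28 members under each of 12 alternatives in HFpEF-scr over Control, and for 24 to 28 in the second comparison, where HFpEF-scr was the base. The size of the ratios was less steady. With the 10% mitochondrial limit, 17 of 28 members stayed within their counting interval in the first comparison and 4 in the second. When thinned, 18 and 14 did. Col6a5 reversed in the second comparison when cells were thinned to 1000 UMIs (log2 ratio -0.20). The summed ratio to Control was 1.11 both with a mitochondrial limit of 10% and when scaled by the median ratio over genes. The second summed ratio was 0.893 with the 10% limit, 0.889 without mitochondrial UMIs, 0.894 when scaled and 0.939 with clusters weighted equally. In the first comparison, where 0 members were higher, 2 were with the 10% limit, with at least 20 UMIs, and by the rule of 1.2. The count of lower members, 2, became 1 with the 10% limit and with clusters weighted equally, and 0 when thinned, with a pseudocount of 1 CPM, with at least 200 UMIs and at a ratio of 2. In the second comparison the count of higher members, 2, became 1 with the 10% limit, with cells classed singly, with clusters weighted equally, by the rule of 1.2 and at a ratio of 2, and 0 when thinned, with the pseudocount and with at least 200 UMIs. The count of lower members, 3, became 8 with the 10% limit, 7 by the rule of 1.2, 6 without mitochondrial UMIs, 5 when scaled and with at least 20 UMIs, and 1 when thinned, with the pseudocount and with at least 200 UMIs. Apart from the rule of 1.2, the shares of all genes called under these settings are not given here. The changed counts are therefore not read as results about the members. The share of members' UMIs in fibroblasts was 73.0%, 71.9% and 85.0% with the 10% limit, 90.1%, 89.6% and 91.0% with a limit of 50%, 88.3%, 87.8% and 90.0% with at least 1000 UMIs per cell, 85.7%, 84.6% and 86.0% with doublets kept, 87.2%, 86.5% and 89.2% at resolution 2.0, and 89.3%, 90.1% and 91.4% with cells classed singly. The cause was not tested. Members under 50 UMIs are limited by depth.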
